A study of Mus musculus with 2 samples.

Results

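The regions described here are the 1000 broadest autosomal peaks of open chromatin in basal cells of mouse skin epidermis. Distinct autosomal peaks were ranked by end minus start and the 1000 longest were taken, with ties settled by peak name. They are 1000 of 82773 autosomal peaks and of 84594 peaks in all. The ranking used peak length only. Neither signal nor ratio entered it, but length is tied to signal through peak calling, and a longer peak overlaps more genes and gene ends by its length alone. The shortest member measured 1852 bp, a length shared by 5 peaks of which 2 were members. Just inside the limit, chr13:9763380-9765232 had 437 normalized reads in control against 406 in ablation, and chr1:191906011-191907863 had 1030 and 838. Just outside it, chr5:124861729-124863581 had 419 and 335, and chr7:28862975-28864827 had 824 in each.

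Accessible DNA was mapped with ATAC-seq, in which a transposase cuts open chromatin and inserts sequencing adapters. The cells were sorted for high α6 integrin, for the absence of CD34 and Lrig1, and for the YFP, GFP and RFP reporters, from K14 lineage tracing in mice. The control library came from epidermis whose genotype is given as WT, and the other library from epidermis with the genotype given as basal lineage ablation. The study asks how chromatin differs in basal cells that expand after ablation. The sources used here give no age, strain, ablation agent or time after ablation, and no number of animals behind a library. Each group had 1 library, so no spread between samples could be measured, no difference was tested, and all intervals are 95% exact Clopper-Pearson intervals for counting error only. In a bulk sample, fewer accessible cells and less access per cell cannot be told apart.

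A peak can be wide where many neighbouring regulatory elements are open side by side. Active promoters with CpG-rich DNA, promoters shared by genes that face away from each other, and strongly used genes of a cell's own programme are known for wide open stretches.

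Signal is given as normalized reads, the authors' read count of a peak times 1 factor per library, and as normalized reads per kb of peak. The ratio is ablation over control. The whole autosomal set held 16832367 reads in control and 12305463 in ablation, and the 1000 members held 7.47% and 7.05% of them on 4.12% of the covered length.

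The promoter sequences below are shown because gene starts are the sites that most broad peaks of high signal hold or adjoin. They are the 250 bases before a gene start inside a member, from RefSeq promoters of GRCm38.p6, the assembly behind mm10. Capitals mark matches, on either strand, to the GC box GGGCGG, to the CCAAT box, to the TATA letters TATAAA, to the AP-1 letters TGANTCA, to the E-box CACGTG, to the ETS letters CCGGAAG and to the YY1 letters AAGATGG, and overlapping matches run together. Abcb9, Ccng2 and Mbd6 lie in the longest members of high signal that held a listed start of a named protein-coding gene, Chst2 and Col8a1 in those with the highest ratios, Exoc7 and Fam214b in those with the lowest, and Jun encodes an AP-1 subunit.
Abcb9 (chr5:124095799-124096048, minus strand): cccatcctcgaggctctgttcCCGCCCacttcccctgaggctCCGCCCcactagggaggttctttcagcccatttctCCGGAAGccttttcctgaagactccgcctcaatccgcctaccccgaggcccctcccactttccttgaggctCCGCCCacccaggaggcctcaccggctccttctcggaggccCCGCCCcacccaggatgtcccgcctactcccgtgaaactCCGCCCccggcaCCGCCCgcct
Ccng2 (chr5:93267323-93267572, plus strand): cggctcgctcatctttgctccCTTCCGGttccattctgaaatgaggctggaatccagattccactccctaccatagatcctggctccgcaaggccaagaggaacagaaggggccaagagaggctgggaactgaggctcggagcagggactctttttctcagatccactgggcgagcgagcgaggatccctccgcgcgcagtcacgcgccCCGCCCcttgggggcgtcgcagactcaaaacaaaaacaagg
Mbd6 (chr10:127288882-127289131, minus strand): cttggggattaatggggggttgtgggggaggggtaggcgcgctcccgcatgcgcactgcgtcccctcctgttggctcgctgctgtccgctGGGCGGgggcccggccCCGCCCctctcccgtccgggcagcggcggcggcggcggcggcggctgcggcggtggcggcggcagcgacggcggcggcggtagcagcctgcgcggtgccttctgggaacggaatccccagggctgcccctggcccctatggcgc
Chst2 (chr9:95407271-95407520, minus strand): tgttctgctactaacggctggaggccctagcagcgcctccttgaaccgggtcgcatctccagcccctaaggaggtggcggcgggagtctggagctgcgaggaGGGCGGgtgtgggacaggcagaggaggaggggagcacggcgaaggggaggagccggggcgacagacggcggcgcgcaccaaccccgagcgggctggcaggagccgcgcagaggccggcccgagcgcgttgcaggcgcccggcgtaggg
Col8a1 (chr16:57754738-57754987, minus strand): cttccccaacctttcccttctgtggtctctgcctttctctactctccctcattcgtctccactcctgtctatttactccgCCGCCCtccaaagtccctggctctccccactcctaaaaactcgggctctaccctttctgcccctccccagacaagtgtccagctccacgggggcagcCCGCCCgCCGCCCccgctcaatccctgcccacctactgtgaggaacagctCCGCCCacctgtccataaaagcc
Exoc7 (chr11:116306735-116306984, minus strand): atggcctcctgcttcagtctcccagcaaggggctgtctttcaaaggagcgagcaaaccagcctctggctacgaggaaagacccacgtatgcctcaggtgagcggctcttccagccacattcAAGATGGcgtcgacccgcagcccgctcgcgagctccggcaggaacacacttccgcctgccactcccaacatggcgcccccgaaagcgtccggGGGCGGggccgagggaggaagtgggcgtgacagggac
Fam214b (chr4:43040302-43040551, minus strand): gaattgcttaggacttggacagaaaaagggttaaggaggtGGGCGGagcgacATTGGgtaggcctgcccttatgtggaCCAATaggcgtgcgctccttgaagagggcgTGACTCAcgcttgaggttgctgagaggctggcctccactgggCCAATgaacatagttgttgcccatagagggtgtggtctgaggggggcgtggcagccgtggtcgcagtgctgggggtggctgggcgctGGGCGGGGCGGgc
Jun (chr4:95052223-95052472, minus strand): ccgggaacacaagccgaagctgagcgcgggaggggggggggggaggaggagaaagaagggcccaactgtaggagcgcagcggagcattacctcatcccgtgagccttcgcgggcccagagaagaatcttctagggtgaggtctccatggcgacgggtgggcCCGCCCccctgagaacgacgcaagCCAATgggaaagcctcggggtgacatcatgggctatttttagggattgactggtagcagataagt

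The window before Abcb9, a lysosomal peptide transporter gene, held 6 GC boxes and 1 ETS match. The window before Col8a1, a collagen gene, held 4 GC boxes. The window before Fam214b held 3 GC boxes, 3 CCAAT matches and 1 AP-1 match, and it was the only printed window with an AP-1 match. None of the 8 windows held TATAAA or the E-box letters. A match describes the letters only and marks no factor as bound.

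Members were 1852 to 8291 bp long with a median of 2044 bp, against a median of 551 bp over all autosomal peaks. Signal per kb divided them into 2 classes with a gap between. No member had a mean of both libraries between 32.2 and 42.6 normalized reads per kb, and a line at 40 normalized reads per kb, chosen after the values were seen, left 160 thin and 840 dense members. Dense members had a median of 249.5 normalized reads per kb in control and 245 in ablation. Thin members had a median of 9.22 in control and 5.13 in ablation. A dense member thus rested on a median of 729.5 reads in control and 565 in ablation, and a thin member on 29 and 13.

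**Figure D1:**
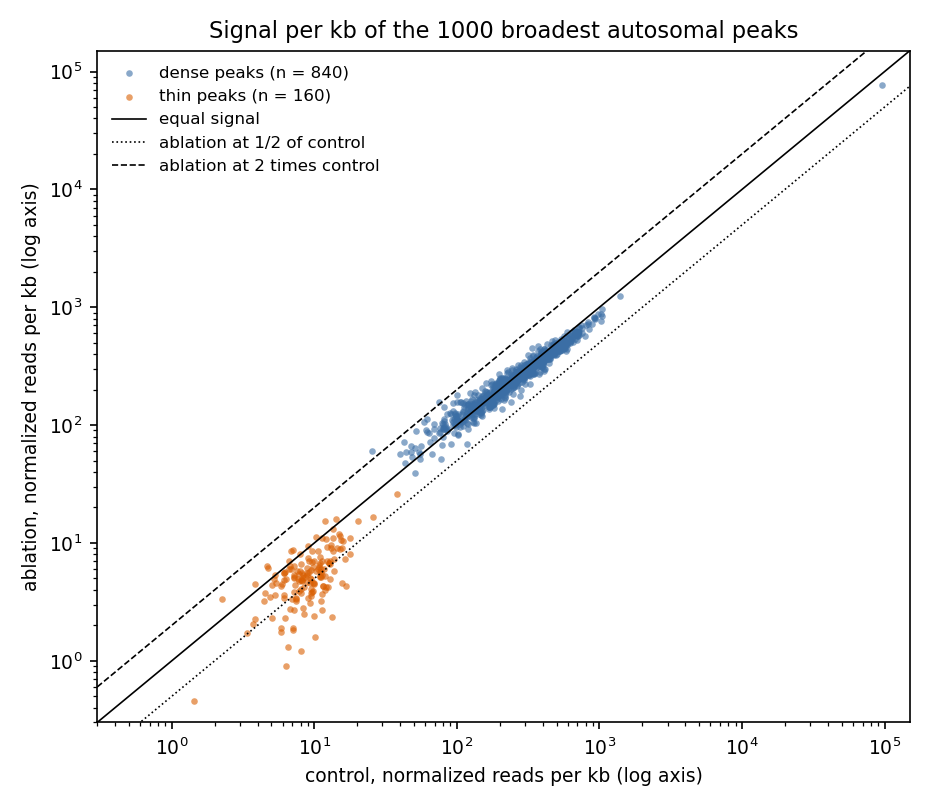
Normalized reads per kb in control (horizontal, log axis) and ablation (vertical, log axis) for each of the 1000 broadest autosomal peaks, 1 library per group, with lines for equal signal and for ratios of 2 in either direction. The 840 dense members lie along the line of equal signal, and most of the 160 thin members lie under it, with medians of 9.22 in control and 5.13 in ablation.

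Over the 943 members whose mean signal reached the 10th percentile of autosomal peaks (14.1 normalized reads), the median log2 ratio was -0.07, beside -0.01 over the 74507 autosomal peaks that reached it. The 57 members under that level were all thin. Of the 943, 28 were at least 2-fold lower in ablation, where 1.83% of all tested peaks were, and 2 were at least 2-fold higher, where 4.49% were. At 1.5-fold, 73 were lower beside 7.4% of all tested peaks, and 12 were higher beside 13.1%. Without the level on signal, 49 of 1000 members were at least 2-fold lower beside 2.87% of all autosomal peaks, and 105 were at least 1.5-fold lower beside 8.94%. The 2 and 12 higher members stood beside 6.16% and 15.2%. In that full set 644 members had a log2 ratio under 0, which is 64.4% beside 50.4%. The lower members were of the thin class for the most part. All 28 of the members at least 2-fold lower were thin, as were 69 of the 73 at 1.5-fold.

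The 840 dense members were close to equal in both libraries. Their median log2 ratio was -0.05, the central 90% ran from -0.33 to 0.36, and 98.1% lay within 1.5-fold. None was at least 2-fold lower, and 2 were at least 2-fold higher. The other 77660 autosomal peaks of the same signal class had a median of -0.01 with 77.6% within 1.5-fold, and they rested on fewer reads, with a median of 82 in control and 68 in ablation. The part that read depth has in this gap was not tested. At like signal per kb the medians were near each other. From 80 to 160 normalized reads per kb the median was 0.10 in 166 members and 0.07 in the other peaks. From 320 to 640 it was -0.13 in 245 members and -0.16 in the others.

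The longest dense member lay at Fosb, an AP-1 subunit gene induced at once by growth signals. It spanned chr7:19300861-19305624 (4763 bp, rank 3 by length) and overlapped the gene. It lay within 1 kb of a gene end, which here means either end of a gene, and it held no listed gene start. The peak had 1985 normalized reads in control against 1437 in ablation. Its ratio was 0.724 (0.68 to 0.77), so the ablation library was lower by more than counting error. The next longest dense member, chr17:39843032-39846811, overlapped the ribosomal RNA pseudogene Rn18s-rs5. It held 511264 reads in control and 320890 in ablation, 3.04% and 2.61% of all reads in autosomal peaks, with a ratio of 0.807. Ribosomal DNA exists in many near-identical copies, so where its reads come from is uncertain. Without it the members held 4.57% of autosomal reads in control and 4.56% in ablation, and the summed ratio of dense members went from 0.889 to 0.946.

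Krt14, which encodes the type I keratin of basal cells, held the next dense member by length. Its peak at chr11:100200169-100203527 (3358 bp, rank 13) lay at a gene end and held no listed gene start. It had 1381 normalized reads in control against 1479 in ablation. The ratio was 1.07 (1.00 to 1.14), close to equal. Plec and Lama3 of the same list also held members and are described below, and the member in Trp63, the basal lineage transcription factor, is given with the transcription factors below.

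Further long dense members lay at genes of several kinds. The peak at Esrp2, an epithelial splicing regulator, spanned chr8:106134422-106137504 with 491 normalized reads per kb in control and 425 in ablation, a ratio of 0.866 (0.809 to 0.926). The peak across Hoxb7 and Hoxb8, homeobox genes of body position, spanned chr11:96284208-96287268 with 80.9 and 96.3 per kb, a ratio of 1.19 (1.02 to 1.39). Ccng2, a cyclin gene of arrested cells, had 349 and 317 per kb with a ratio of 0.906 (0.836 to 0.982). As deposited, the Esrp2 and Ccng2 peaks were lower and the Hox peak higher in ablation. After a loess correction for signal, described with the scalings below, their log2 ratios were 0.05, 0.08 and 0.34, so the first 2 changed sign. The peak between Mbd6 and Ddit3, the latter a stress-response transcription factor, had 491 and 457 per kb. The peaks at Nipbl, a cohesin loader, with 228 and 219 per kb, and at Abcb9, with 319 and 302, had intervals of the ratio that included 1. So did the peak in Nr3c1, the glucocorticoid receptor gene, with 318 and 298 per kb.

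The densest members after the ribosomal one were led by Egr1, an immediate-early zinc finger gene. Its peak at chr18:34859823-34861720 had 1389 normalized reads per kb in control and 1249 in ablation, a ratio of 0.900 (0.855 to 0.946). Sin3a, a corepressor scaffold, had 1050 and 840.1 per kb, a ratio of 0.80 (0.754 to 0.849). A peak 5061 bp from Klf9, a glucocorticoid-induced factor gene, had 1027 and 768 per kb, a ratio of 0.747 (0.707 to 0.790). Those 3 and the peaks at Usp5 and Cdca3, in Tjap1, at Cep57 and Fam76b, and in S100a3 were all lower in ablation as deposited, with ratios from 0.747 to 0.922. The 36 members over 640 normalized reads per kb had a median log2 ratio of -0.19, and the other peaks of that range -0.26.

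Few dense members differed by much. The highest ratio was at chr15:7614390-7616393, 193655 bp from Gdnf, with 25.4 normalized reads per kb in control and 59.8 in ablation, a ratio of 2.36 (1.76 to 3.19). The peak in Kcnn3, a calcium-activated potassium channel gene, at chr3:89646652-89648773 had 74.9 and 158 per kb, a ratio of 2.11 (1.78 to 2.50). Sox9, a transcription factor of hair follicle stem cells, held a peak at chr11:112781250-112783118 with 99.7 and 181 per kb, a ratio of 1.81 (1.54 to 2.13). All 3 were higher in ablation by more than counting error. Ratios of 1.56 to 1.84 were found in Smim3, in Ell, a transcription elongation factor gene, in Cnih3, at Col8a1, 2057 bp from Eomes, at Chst2, a sulfotransferase gene, and 251446 bp from Hnrnpa3. These 10 peaks had 25.4 to 100.5 normalized reads per kb in control, under the dense median of 249.5. Under division by the table total, described with the scalings below, none of the members past the level on signal was 2-fold higher.

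The lowest dense ratio was at chr1:85591063-85593344 in Sp110 and Sp140, interferon-responsive nuclear body genes, which belong to a family with near-identical copies, so that read placement is uncertain. It had 118 normalized reads per kb in control and 68.8 in ablation, a ratio of 0.582 (0.484 to 0.698). Exoc7, an exocyst subunit gene, had 240.1 and 156 per kb with a ratio of 0.649 (0.566 to 0.743). Zfyve1 had 209 and 138 per kb with a ratio of 0.660 (0.572 to 0.761). A peak 2778 bp from Msx2, a homeobox gene of skin appendages, had 77.6 and 51.9 per kb, and a peak 2015 bp from Perp, a desmosome gene and p53 target, had 405 and 289, with ratios of 0.669 and 0.713. Peaks 61202 bp from Slc9a9, in Mmd, 108694 bp from Actl7b and in Acad11 had ratios from 0.638 to 0.726. Every one of these had an interval under 1, as had 245 of the 840 dense members.

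AP-1 subunits, transcription factors that pair as FOS and JUN proteins and answer to growth and stress signals, had a member at 4 of 14 genes, beside 4.02% of the 20665 autosomal protein-coding genes and 5.42% of those with any peak. Fos had 1102 normalized reads in control and 805 in ablation, a ratio of 0.731 (0.673 to 0.794). Fosl2 had 1392 and 1243, a ratio of 0.893 (0.833 to 0.957), and Jun had 1867 and 1790, a ratio of 0.959 (0.904 to 1.02). The Fosb and Fos peaks held no listed gene start, while those at Fosl2 and Jun did. With Fosb all 4 were lower in ablation, beside 59.0% of all dense members, and the interval of Jun included 1. Strong members were lower in general, with median log2 ratios of -0.13 from 320 to 640 normalized reads per kb and -0.19 above. The median log2 ratio of the 4 AP-1 peaks was -0.31 as deposited, and -0.22 with 3 of 4 lower when each library was divided by its autosomal total. After a loess correction for signal it was -0.05 with 2 lower and 2 higher. Among the immediate-early and MAPK feedback genes, 3 of 27 had a member. Those were Egr1, Ier5 with a ratio of 1.08 (0.963 to 1.22) and Spred1, a brake on MAPK signalling, with a ratio of 0.998 (0.876 to 1.14).

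Actomyosin and focal adhesion genes, which build the contractile cell cortex, had a member at 7 of 20, a share of 35%. The peak at a gene end of Actb, the cytoplasmic beta actin gene, had 1105 normalized reads in control and 814 in ablation, a ratio of 0.737 (0.678 to 0.801). A gene end need not be the gene start. Myh9, the nonmuscle myosin heavy chain gene, had 871 and 723, a ratio of 0.83 (0.758 to 0.908). The peak at a gene end of Cnn2, an actin-binding calponin gene, had 227 and 291, a ratio of 1.28 (1.09 to 1.5). The only listed gene start in that peak was that of another gene, Abca7. As deposited, the Actb and Myh9 peaks were lower and the peak shared by Cnn2 and Abca7 higher in ablation. Tpm4, a tropomyosin gene, was at 0.910 (0.830 to 0.998). The ratios at Actg1 (0.970) and Cttn (1.08) had intervals that included 1, and the Actg1 peak held no listed gene start. The median log2 ratio of the 7 was -0.04 as deposited, and 0.05 with autosomal totals and 0.18 after loess.

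Basal adhesion and keratin genes had a member at 4 of 16. Plec, which links keratin to hemidesmosomes, had 1376 normalized reads in control and 1242 in ablation, a ratio of 0.902 (0.841 to 0.967). Lama3 held a thin member in its body with 42 reads in control against 37 in ablation, a ratio of 1.13 (0.708 to 1.8) after scaling. Plec alone of the 4 was lower as deposited and with autosomal totals, while none was lower after loess and all 4 were with table totals. Table totals shift the median of all tested peaks by -0.33. Suprabasal and cornification genes had a member at 3 of 20. Tgm1, the membrane transglutaminase gene, had 1187 and 947 normalized reads, a ratio of 0.798 (0.738 to 0.862). Sbsn had 1030 and 834, a ratio of 0.809 (0.744 to 0.879), and Tgm3 had 426 and 411, a ratio of 0.964 (0.852 to 1.09). All 3 were lower as deposited, beside 59.0% of dense members, with Tgm3 within counting error. With autosomal totals and after loess 2 of 3 were lower.

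Epidermal transcription factors had a member at 4 of 40. Maf had 374 normalized reads in control and 516 in ablation, a ratio of 1.38 (1.22 to 1.56). Ovol2, a repressor that keeps cells epithelial, was at 1.01 (0.905 to 1.13) and Trp63 at 0.919 (0.803 to 1.05). Maf was higher, and Ovol2 and Trp63 were within counting error. Junction genes had a member at 4 of 22. Pkp3, a desmosomal plaque gene, had 1504 and 1283 normalized reads, a ratio of 0.853 (0.797 to 0.913). Jup and both peaks in Nectin1 had intervals that included 1.

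Members at signalling and clock genes lay under 1 for the most part as deposited, as did 59.0% of all dense members. Notch pathway genes had a member at 3 of 15, with Notch3, a receptor gene, at 0.830 (0.746 to 0.922), Rbpj, the DNA-binding effector, at 0.870 (0.814 to 0.929) and Jag2, a ligand gene, at 0.948 (0.865 to 1.04). TGF-beta and BMP genes had a member at 3 of 23, with the receptor gene Tgfbr1 at 0.80 (0.737 to 0.868), and the repressor genes Skil at 0.851 (0.784 to 0.924) and Tgif1 at 0.888 (0.826 to 0.955). Clock and glucocorticoid genes had a member at 4 of 16. The clock repressor gene Per2 had 1424 normalized reads in control and 1136 in ablation in the peak at its gene end, a ratio of 0.798 (0.743 to 0.857). A weaker peak in the body of Per2 had 204 and 209.5, a ratio of 1.03 (0.860 to 1.23). Bhlhe40 and Cry1, further repressors of the clock, were at 0.813 (0.750 to 0.882) and 0.860 (0.776 to 0.952). Of these peaks, only Jag2, Nr3c1 and the body peak of Per2 had intervals that included 1. After the loess correction the Notch, TGF-beta and clock medians were 0.06, -0.01 and -0.04, so the direction of the Notch group turned and the others came close to 0.

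Cell cycle entry and p53 genes had a member at 5 of 26, with ratios from 0.958 at Cdkn1a, a cell cycle inhibitor gene, to 1.10 at Gadd45g, and all 5 intervals included 1. Housekeeping genes had a member at 4 of 21, all higher in ablation as deposited, beside 344 of the 840 dense members. Their median log2 ratio was 0.12, and all were lower with table totals (-0.22). Relative to all tested peaks of the same scaling their median was 0.13 as deposited and 0.12 with table totals. Hnrnpa2b1, an RNA-binding protein gene, had 802 normalized reads in control and 925 in ablation, a ratio of 1.15 (1.06 to 1.26), and Ldha had 387 and 441, a ratio of 1.14 (1.00 to 1.29). Hsp90ab1 and Ubb had intervals that included 1. Chromatin regulators had a member at 4 of 22, with Arid1b at 1.18 (1.03 to 1.35), Dnmt3a at 1.11 (0.965 to 1.27), Kmt2a at 0.893 (0.80 to 0.997) and Hmgb1 at 0.895 (0.819 to 0.976).

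Single members lay at Egfr, the receptor gene for epidermal growth factor, with a ratio of 0.983 (0.878 to 1.10), at Yap1 (0.911, 0.812 to 1.02) and at Nfkb2 (1.01, 0.932 to 1.08). None of 22 Wnt pathway genes, 14 wound keratins and alarmins, 11 EMT regulators and 18 mitosis and replication genes had a member. Each of these lists is too short for that to be set apart from the 4.02% of all autosomal protein-coding genes. Among markers of other cells the sort could hold, 1 of 9 melanocyte and 1 of 9 T cell markers had a member, and the lists are too short to be set apart from the 4.02% of all genes. No member lay at the 10 Langerhans and myeloid, 10 endothelial and 9 fibroblast markers, or at 13 muscle, neuron and liver factors. The melanocyte factor gene Mitf (0.897, 0.750 to 1.07) and the T cell kinase gene Lck (0.839, 0.675 to 1.04) each held 1, and the Lck peak had 67.1 normalized reads per kb in control.

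**Figure D2:**
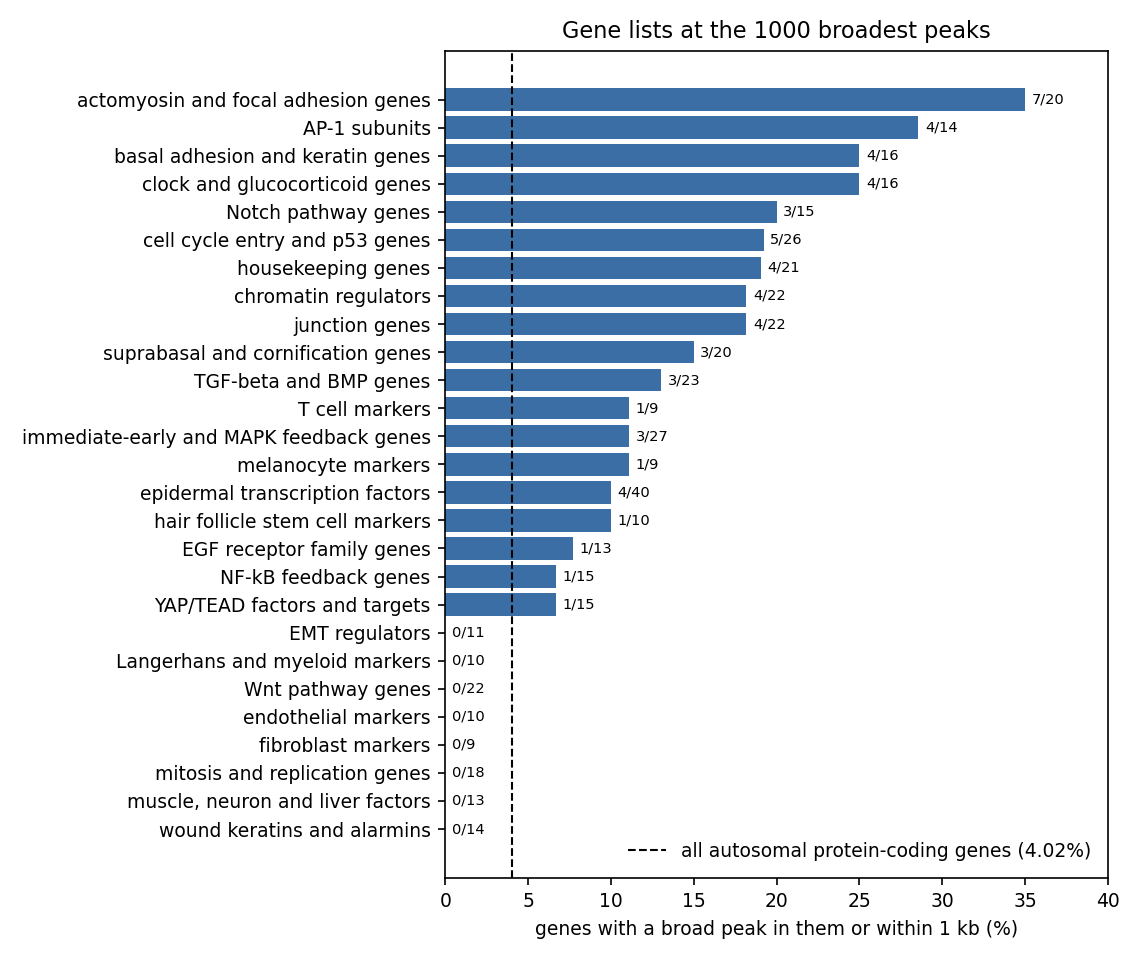
Share of autosomal genes of each of 27 lists with a member in the gene or within 1 kb of it (bars, percent, with counts beside them), and the share of all autosomal protein-coding genes (dashed line, 4.02%). Actomyosin genes (7 of 20) and AP-1 subunits (4 of 14) stand highest, and 8 lists have no member.

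**Figure D3:**
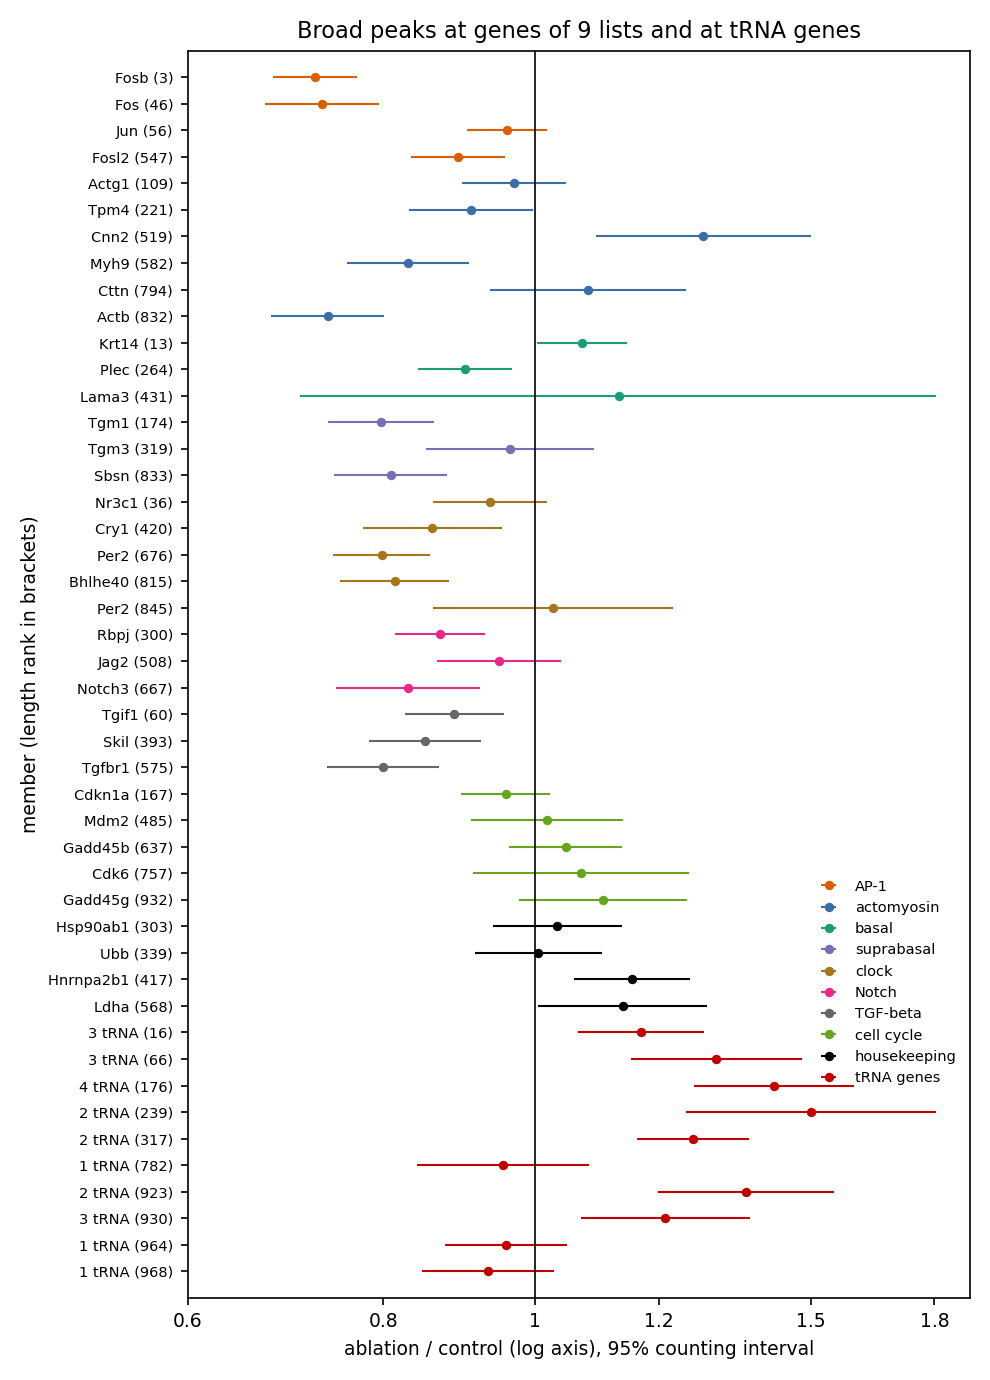
Ratio of ablation to control (horizontal, log axis) with 95% counting intervals for the members reported here at genes of 9 lists and at tRNA genes, 1 point per peak with its rank by length, from 1 library per group. As deposited, the AP-1, Notch and TGF-beta peaks lie under 1 (after loess 2 of 4, 1 of 3 and 2 of 3 do), as do 59.0% of all dense members. The 7 peaks with more than 1 tRNA gene lie over 1 (4 do with table totals, which shift the median log2 ratio of all tested peaks by -0.33).

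Transfer RNA genes, short genes read by RNA polymerase III, lay in 10 members, 22 genes in all. They were picked out after their values were seen. A peak at chr13:22020437-22022713 with 2 tRNA genes had 156 normalized reads in control and 234 in ablation, a ratio of 1.5 (1.25 to 1.8). A peak at chr19:12010223-12012590 with 4 had 380 and 540, a ratio of 1.42 (1.26 to 1.60). The longest, at chr2:122375480-122378772 with 3, had 678 and 793, a ratio of 1.17 (1.07 to 1.28). All 7 members with 2 or more tRNA genes were higher in ablation with intervals over 1, beside 113 such intervals among all 1000 members. The 3 with 1 tRNA gene had ratios from 0.934 to 0.958 with intervals that included 1. Among the 34 other autosomal peaks with 2 or more, 31 were higher, with a median log2 ratio of 0.32, and among the 92 with 1, 59 were higher, with a median of 0.14, beside 48.9% of all tested peaks. Together these 126 peaks had a median of 0.21 as deposited with 90 higher, 0.30 with autosomal totals, 0.26 after loess and -0.13 with table totals, where 46 were higher and 80 lower. The median of the 7 members was 0.38 as deposited, 0.47 with autosomal totals, 0.55 after loess and 0.04, with 3 lower and 4 higher, with table totals. Table totals shift the median of all tested peaks by -0.33. Relative to all tested peaks of the same scaling, the 7 members were at 0.39 as deposited, 0.39 with table totals, 0.40 with autosomal totals and 0.55 after loess. The 126 other peaks were at 0.22, 0.21, 0.22 and 0.26 in the same order. Copies of tRNA genes are alike, so that read placement among them is uncertain.

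Broad peaks stood at gene ends more often than the shorter peaks as a whole, and about as often as the next 1000 by length. Within 1 kb of an end of a protein-coding gene lay 50.1% (47.0 to 53.2) of members and 59.5% of dense ones, beside 17.6% of the other autosomal peaks and 51.6% (48.5 to 54.7) of the next 1000 by length. A further 22.7% lay in gene bodies and 27.2% between genes. Gene starts on chromosome 18 were not used here, which leaves 965 members, and of these 451 held a gene start listed in the RefSeq table, which is not complete, 46.7% (43.6 to 49.9), beside 13.1% of other peaks. Longer windows hold more starts by length alone, and per 100 kb of peak the members held 30.9 starts, the others 27.1 and the next 1000 by length 38.1. Dense members held 37.7 starts per 100 kb. Of the members with a start, 33.5% held 2 or more, beside 22.1% of other peaks with a start, which include alternative starts of 1 gene.

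The 300 members with 1 gene start reached a median of 927.5 bp upstream and 1219 bp downstream of it. More of the peak lay downstream in 58.7% of them, beside 59.5% of the 8095 other peaks with 1 start, which reached 395 and 483 bp. The tilt toward the transcribed side was thus of like size at both lengths.

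**Figure D4:**
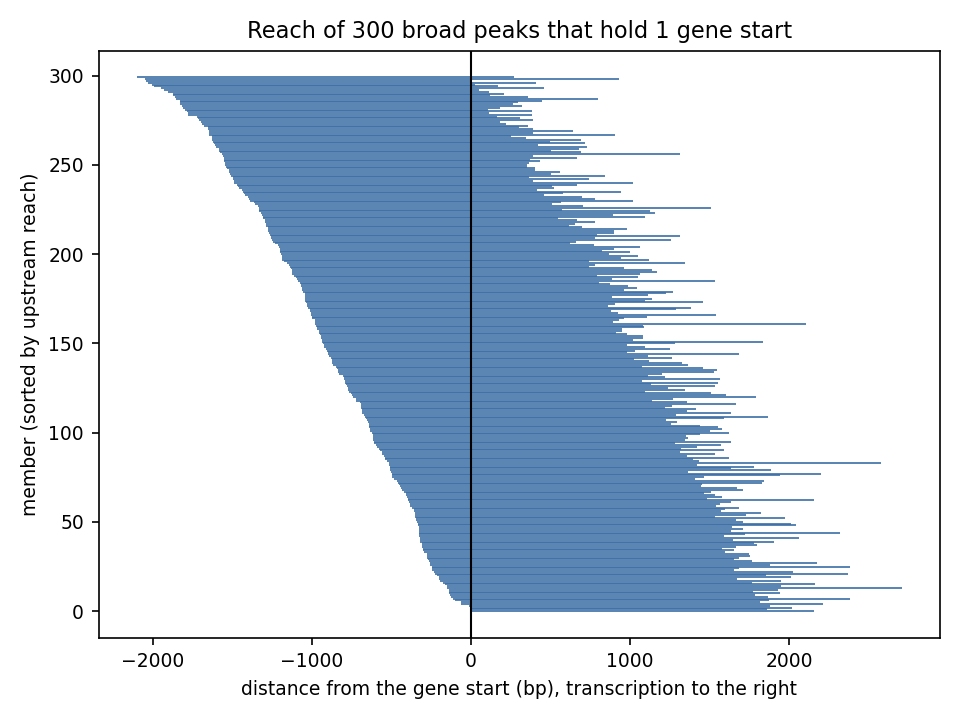
Extent of each of the 300 members with 1 RefSeq gene start (horizontal lines, bp from the start, transcription to the right), sorted by upstream reach. The medians are 927.5 bp upstream and 1219 bp downstream, and 58.7% of members reach farther downstream.

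Promoters inside members were rich in CpG. Over 300 bases, 250 before to 50 after the start, the 548 protein-coding promoters in a member had a median GC content of 66% and a CpG observed to expected ratio of 0.82. The 11155 promoters in another peak had 62.3% and 0.783, and the 8352 in no peak 48.3% and 0.213. The GC box was found in 74.6% of promoters in members, 69.0% of those in other peaks, 15.9% of those in no peak and 47.0% of all. TATAAA was found in 4.93%, 6.13%, 22.0% and 12.7%. CCAAT was in 30.1% of promoters in members beside 38.1% both in other peaks and in all. The ETS letters were in 11.5% beside 18.7% in other peaks and 11.9% in all. These 2 motifs were thus less frequent at members than at other open promoters, while the GC box was more frequent. AP-1 letters were in 6.2%, 5.24% and 7.06% of promoters in members, other peaks and all, the E-box in 11.5%, 10.3% and 7.88%, and the YY1 letters in 6.02%, 6.89% and 6.29%.

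In all, 830 protein-coding genes had a member in them or within 1 kb, and 809 had a dense one. No gene had 3 or more, and 11 had 2, which are named here after their values were seen. They were Ablim1, Babam2, Ell, Mb21d2, Nectin1, Pafah1b2, Per2, Prkce, Sik3, Slc38a2 and Zbtb7c. Pafah1b2 and Sik3 are neighbours and share 1 of these peaks. At Ablim1, an actin-binding gene, both log2 ratios were under 0 (-0.29 and -0.40), as at Mb21d2 (-0.28 and -0.40). At Ell they differed, with -0.15 and 0.84.

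The thin members were a different kind of region. None of the 154 off chromosome 18 held a listed gene start, which allows up to 2.37% by the exact interval. Of the 160, 139 lay between genes, 20 in gene bodies and 1 within 1 kb of a gene, 615 bp from Ltn1. The median distance to the next peak was 54719 bp beside 4960.5 bp for dense members, 84 had no other peak within 50 kb, and 97 had no protein-coding gene within 50 kb. They were frequent among the very longest peaks, with 48 of the 100 longest and 9 of those ranked 901 to 1000.

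The thin members were lower in the ablation library with few exceptions. The longest peak of all, chr6:65297670-65305961 (8291 bp, 75333 bp from Qrfprl), had 73.4 normalized reads in control and 44.4 in ablation, a ratio of 0.606 (0.422 to 0.858). The next, chr10:52493809-52498714 (4905 bp, 53617 bp from Nus1), had 12.9 and 7.03 per kb, a ratio of 0.543 (0.361 to 0.801). The peak in the body of L3mbtl4, chr17:68689937-68692656, had 51 reads in control and 7 in ablation, a ratio of 0.176 (0.0675 to 0.390). All 3 were lower beyond counting error. Over the 160, 148 were lower beside 50.4% of all autosomal peaks, and the median log2 ratio was -0.71. Of their intervals 62 lay under 1 and none over 1, beside 14163 under and 12681 over 1 among all 82773 autosomal peaks. Summed, they held 5390 reads in control and 2499 in ablation, a ratio of 0.596 (0.568 to 0.625). The 10 lowest ratios among all members were all thin.

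As deposited, the median ratio of thin peaks differed between length classes. Thin peaks under 500 bp had a median log2 ratio of 0.42 (2559 peaks), those of 500 to 999 bp 0.34 (1104), those of 1000 to 1499 bp -0.42 (300), and those of 1500 to 1851 bp -0.84 (150). The class under 500 bp was at 0.10 with table totals, 0.50 with autosomal totals and 0.007 after loess. Relative to all tested peaks of the same scaling it was at 0.43 as deposited, 0.45 with table totals and 0.42 with autosomal totals. After loess that value was 0.008, so its higher level was kept under both library totals and was lost after the loess correction for signal. The class of 1000 to 1499 bp had a summed ratio of 1.03 (0.993 to 1.06), on the other side of 1 from its median. The share lower in ablation went from 36.1% in the shortest class to 88.7% in peaks of 1500 to 1851 bp and 92.5% in the members. Dense peaks stayed between -0.07 and 0.07 in all 5 length classes. Signal differed between the thin classes too, with a control median of 27.4 normalized reads per kb under 500 bp and 9.22 in the members. The deposited table lists its peaks in 3 stretches, and 29 thin members were first listed in stretch 2 (median -0.97) and 131 in stretch 3 (median -0.67). The length classes differed in stretch as well. From the shortest class to the members, 55.0%, 33.6%, 4%, 0% and 0% of thin peaks were first listed in stretch 1. For stretch 2 the shares were 31.3%, 21.0%, 50.7%, 56.7% and 18.1%, so length and stretch changed together. On the X chromosome, which the ranking left out, 41 thin peaks were as long as the members. Of them 40 were lower, with a summed ratio of 0.502 (0.453 to 0.555). Of all X peaks 61.2% were lower, with a median log2 ratio of -0.12, beside 50.4% of autosomal peaks. The parts that read depth, signal, table stretch and peak selection have in the ratios of thin peaks were not tested.

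**Figure D5:**
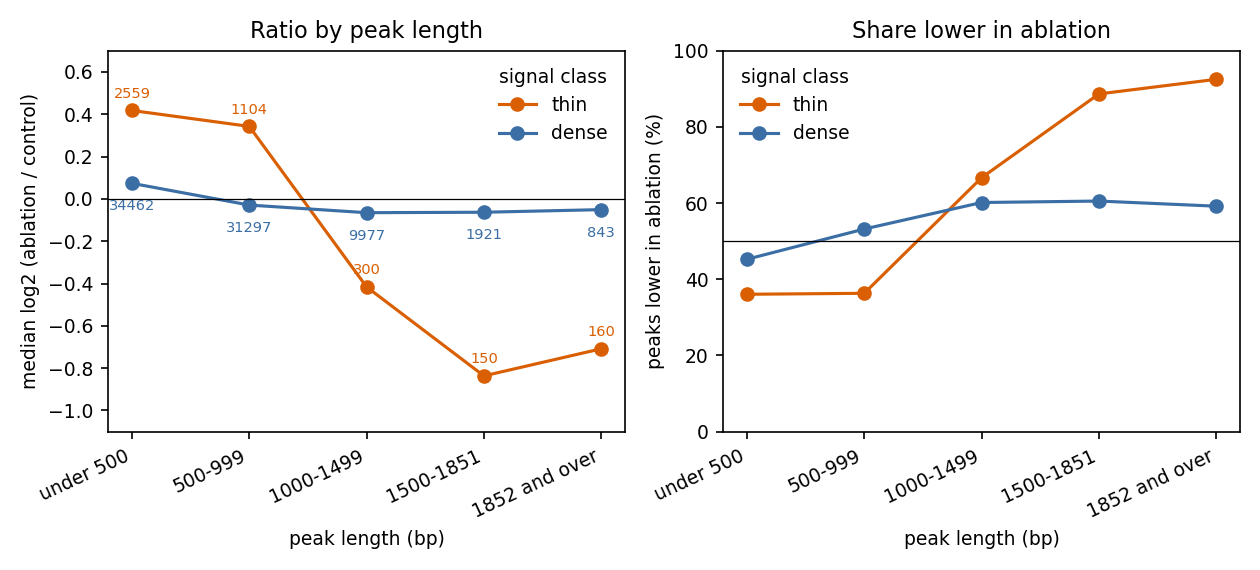
Median log2 ratio of ablation to control (left, number of peaks at each point) and share of peaks lower in ablation (right, percent) by peak length in bp, for autosomal peaks under (thin) and over (dense) 40 normalized reads per kb. As deposited, thin peaks go from 0.42 under 500 bp (0.007 after loess) to -0.71 at the length of the members, while dense peaks stay near 0.

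The scale of the libraries moves these medians together. Dividing each library by its total over the table, mitochondrial peaks included, shifts the median of all tested peaks by -0.33 on the log2 scale, and dividing by autosomal totals shifts it by 0.09. Relative to all tested peaks of the same scaling, thin members were at -0.70 as deposited, -0.67 with table totals, -0.70 with autosomal totals and -0.96 after a loess correction for signal. Dense members were at -0.04 under the first 3 and 0.13 after loess. The thin median was thus under 0 in all 4, while the sign of the dense median depended on the scaling, with 0.04 under autosomal totals.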

How the data were processed

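ATAC-seq of 1 control and 1 ablation library was used. The values are the signal of each peak as the authors deposited it, scaled by 1 factor per library. Build mm10 is named per the submitters' processing notes, which also list HTSeq, MACS2 2.1.0.20151222, Bowtie2 2.3.4.2, Picard and Trimmomatic. The role of each tool, the selection of peaks and the origin of the factors were not given in the sources used here. Values were whole multiples of 0.706 (control) and 0.907 (ablation), with 99.9988% of autosomal values within 0.1 of a whole read, so reads were recovered. A count test needs replicates and was not run. The control column was matched by name although it carries the number 2, and the column named Exp was taken as ablation, the other sample being the control. Columns left unused numbered 0.

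Rows (116411) were merged to 84594 distinct peaks, and whether starts count from 0 or 1 is not stated. The log2 ratio used a pseudocount of 1. Intervals are 95% exact Clopper-Pearson intervals of reads; PCR copies are not independent molecules, so they cover counting error only. A count of 0 (3 reads) allows up to 2.12 normalized reads in control and 2.72 in ablation. Genes and promoters came from RefSeq tables of GRCm38.p6, with 31365 autosomal starts. A peak at a gene end lies at most 1 kb from either end of a protein-coding gene, so it need not hold a gene start. Of 459 entries on 27 gene lists, 455 matched an autosomal gene by symbol. Named members are the longest 12 (all and dense), the 10 highest and 10 lowest ratios, the 8 densest and up to 4 genes per list, with predicted genes left out; lists with more members name further ones, and some members that the rule names are not reported here. Naming the 10 lowest dense and the longest 12 dense, the line between thin and dense, and the tRNA group were added after values were seen. The members and lists were chosen with earlier results of these data known. Calculations were tested on simulated reads. Alternatives covered pseudocount, scaling, loess, number of members, signal level, X chromosome, gene window and gene assignment. Work was done in Python 3.11.15 with scipy 1.17.1, pandas 2.3.3, numpy 2.4.6, matplotlib 3.10.9 and statsmodels 0.14.6.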

Additional observations from a re-analysis of the deposited data

Results flagged for a closer look

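The 3 mitochondrial peaks, 2 of them as long as the broad autosomal peaks, are among the peaks of no comparison and enter only the table totals of 1 scaling. Their ratio of ablation to control was 5.41 (5.4 to 5.42), a signal above the control library.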

How the results depend on the processing

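No paired analysis was possible because each group has 1 library and the groups share fewer than 2 replicate numbers. Over members past the level on signal, the median log2 ratio was -0.41 with table totals, 0.018 with autosomal totals and 0.10 after loess, the last 2 on the other side of 0 from the reported -0.07, and -0.050 without the thin members. With table totals 0 members were at least 2-fold higher, 57 at least 2-fold lower, 2 at least 1.5-fold higher and 196 lower. After loess 45 were 2-fold lower and 21 1.5-fold higher, and with autosomal totals 21 were 1.5-fold higher. A pseudocount of 5 left 17 at least 2-fold lower, and no level on signal gave 49. Without the thin members 0 were 2-fold lower and 4 1.5-fold lower, the median signal was 249.5 normalized reads per kb in control and 245 in ablation, and 59.5% lay at gene ends. With autosomal totals the ablation median was 233 normalized reads per kb instead of 219. The 500 longest gave 1 peak 2-fold higher, 6 1.5-fold higher and 397 genes overlapped, and the 2000 longest 5, 45 and 1586, beside 2, 12 and 802. A window of 0 bp put 43.6% at gene ends. Leaving out the thin members, or the strongest one, was added after seeing the data. Leaving out a library was not possible, and thin members rest on a median of 13 reads in ablation, which limits single ratios.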
